A study of Mus musculus with 3 samples.

Results

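These data describe peaks of Isl1, a LIM-homeodomain transcription factor, whose nearest annotated transcription start site (TSS) belonged to a noncoding transcript. From the deposited list, repeated lines were dropped, and a peak was taken as a member when its assigned RefSeq accession began with NR_, the prefix of noncoding transcripts, and its symbol did not begin with Mir. This gave 1342 of 14082 distinct peaks (9.53%), assigned to 769 transcript names. They were compared with the 12381 peaks assigned to coding transcripts, whose accessions begin with NM_. The remaining 359 peaks were nearest to microRNA genes and entered neither class. The chromatin came from day 5 cardiac progenitor cells (CPCs) differentiated from E14 mouse embryonic stem cells that carry an Nkx2-5-EmGFP transgene, a reporter of an early cardiac gene. The samples were 2 immunoprecipitations with the Isl1 antibody 39.4D5 and 1 input, and none of the samples lacked Isl1. The list combines both replicates and holds neither a score nor a read number, so depth is unknown, the spread between replicates cannot be computed, and the intervals and tests below cover counting error over peaks only.

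Long noncoding RNAs (lncRNAs) are transcripts that are not translated into protein. Some are known to act in the nucleus on chromatin or splicing, others in the cytoplasm, and for many no function is known. A common arrangement places the lncRNA start beside that of a coding gene on the opposite strand, so that a CpG-rich promoter serves both. In the heart field, Fendrr lies beside Foxf1, Hand2os1 (also Upperhand) beside Hand2 and Gata6os beside Gata6, each next to a gene for a transcription factor of the mesoderm. NR_ accessions are also given to other noncoding products. By the RefSeq gene type, 1188 members (88.5%) were nearest to lncRNA genes, 114 (8.49%) to transcribed pseudogenes, 12 to the RNase P RNA genes Rprl1 and Rprl2, 12 to genes now typed as protein-coding and 9 to small nucleolar RNA genes. In all, 152 members (11.3%) were nearest to something other than an lncRNA gene or a gene of unknown type, and the label therefore holds for most peaks but not for all.

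The sequence at promoter peaks is shown first for lncRNAs of known name, as the central 200 bp of each peak in mm9 on the plus strand with CG dinucleotides in capitals. The windows are chr5:112657713-112657912 for Miat, chr6:52195143-52195342 for Hoxa11os, chr11:3548976-3549175 for Tug1, chr14:62300912-62301111 for Dleu2, chr2:156218412-156218611 for 2900097C17Rik (now Norad) and chr1:162964848-162965047 for Gas5.
Miat: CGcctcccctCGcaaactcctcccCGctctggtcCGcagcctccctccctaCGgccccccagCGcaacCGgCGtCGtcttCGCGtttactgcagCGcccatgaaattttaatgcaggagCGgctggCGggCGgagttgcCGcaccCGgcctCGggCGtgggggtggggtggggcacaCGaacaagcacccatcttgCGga
Hoxa11os: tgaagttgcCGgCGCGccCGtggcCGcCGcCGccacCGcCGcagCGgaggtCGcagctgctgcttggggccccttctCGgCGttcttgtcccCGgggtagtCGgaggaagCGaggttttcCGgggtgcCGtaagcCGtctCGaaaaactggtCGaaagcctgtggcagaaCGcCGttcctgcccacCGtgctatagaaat
Tug1: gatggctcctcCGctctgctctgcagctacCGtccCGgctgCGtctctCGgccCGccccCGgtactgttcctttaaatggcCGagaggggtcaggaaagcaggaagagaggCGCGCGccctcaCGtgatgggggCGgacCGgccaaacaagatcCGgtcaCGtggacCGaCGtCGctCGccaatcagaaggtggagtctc
Dleu2: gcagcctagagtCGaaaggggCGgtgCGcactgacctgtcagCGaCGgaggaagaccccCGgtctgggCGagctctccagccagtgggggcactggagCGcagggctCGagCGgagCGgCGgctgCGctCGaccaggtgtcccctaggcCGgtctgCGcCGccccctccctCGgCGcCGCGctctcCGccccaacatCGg
2900097C17Rik: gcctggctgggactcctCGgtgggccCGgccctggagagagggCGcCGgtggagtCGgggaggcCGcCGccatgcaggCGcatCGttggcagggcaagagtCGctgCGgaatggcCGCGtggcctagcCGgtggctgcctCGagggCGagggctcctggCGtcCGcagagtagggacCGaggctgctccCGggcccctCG
Gas5: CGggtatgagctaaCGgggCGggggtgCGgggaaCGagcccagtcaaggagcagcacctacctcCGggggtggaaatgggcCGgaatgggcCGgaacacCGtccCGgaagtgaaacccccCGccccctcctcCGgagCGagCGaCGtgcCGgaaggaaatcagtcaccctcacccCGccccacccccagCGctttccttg
These windows held 18 to 24 CG dinucleotides and had GC contents from 65% to 75%. The sequence under 5 of them occurred once in the genome, and that of 2900097C17Rik had a median of 3 copies. Copy number was the median number of genomic occurrences, on both strands, of the 31-mers of the central 200 bp, and 2 or more copies are called multi-copy.

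Peaks far from the noncoding TSS were mostly of another kind. The largest repeat groups are shown by the member with the highest median copy number in each, with the most frequent 31-mer in capitals. They lay at chr12:52269053-52269252 (group 1, nearest to 1700008C04Rik), chr14:124279289-124279488 (group 2, 1700024B18Rik), chr14:72456978-72457177 (group 3, 4930434J06Rik) and chr1:19989206-19989405 (group 4, 4930486I03Rik).
1700008C04Rik: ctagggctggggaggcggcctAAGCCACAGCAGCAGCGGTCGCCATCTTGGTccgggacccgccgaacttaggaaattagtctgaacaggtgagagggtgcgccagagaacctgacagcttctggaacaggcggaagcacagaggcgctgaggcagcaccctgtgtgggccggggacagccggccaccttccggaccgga
1700024B18Rik: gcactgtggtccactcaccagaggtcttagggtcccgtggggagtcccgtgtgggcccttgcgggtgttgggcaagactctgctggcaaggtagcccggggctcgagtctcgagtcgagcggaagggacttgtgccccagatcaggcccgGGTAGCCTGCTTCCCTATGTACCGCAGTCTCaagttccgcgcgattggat
4930434J06Rik: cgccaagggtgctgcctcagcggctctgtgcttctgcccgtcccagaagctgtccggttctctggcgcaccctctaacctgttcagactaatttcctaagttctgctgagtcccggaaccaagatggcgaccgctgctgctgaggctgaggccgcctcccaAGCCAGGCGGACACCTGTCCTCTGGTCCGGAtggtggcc
4930486I03Rik: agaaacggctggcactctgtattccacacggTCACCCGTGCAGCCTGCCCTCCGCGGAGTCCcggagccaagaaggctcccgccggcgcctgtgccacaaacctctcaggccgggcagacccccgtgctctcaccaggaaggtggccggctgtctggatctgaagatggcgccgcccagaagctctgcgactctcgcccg
The capital 31-mers occurred 5776, 5638, 2022 and 1521 times in mm9. For contrast, the widest distal peak at single-copy sequence, nearest to 4933400F21Rik and inside an intron of Agap1, is shown at chr1:91477370-91477569 with CG dinucleotides in capitals.
4933400F21Rik: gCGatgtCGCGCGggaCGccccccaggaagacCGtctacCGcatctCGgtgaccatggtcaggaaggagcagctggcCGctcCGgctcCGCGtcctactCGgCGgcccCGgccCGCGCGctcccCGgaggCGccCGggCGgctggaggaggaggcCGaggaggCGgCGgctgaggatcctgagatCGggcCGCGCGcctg
This window had a GC content of 76% and 29 CG dinucleotides.

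To see where Isl1 peaks lay relative to noncoding starts, the deposited distances were divided into classes. Within 1 kb of the TSS lay 121 members (9.02%, Wilson 95% interval 7.60% to 10.7%), against 5242 of the coding-assigned peaks (42.3%, interval 41.5% to 43.2%). The odds ratio was 0.135 (two-sided Fisher exact test, adjusted p = 7.71e-149). Beyond 10 kb lay 1123 members (83.7%, interval 81.6% to 85.6%) against 47.1% of the coding-assigned peaks (odds ratio 5.77, adjusted p = 1.48e-154, Fisher exact test). The median distance was 81620 bp for members and 6709 bp for coding-assigned peaks. Of the members, 608 (45.3%) were over 100 kb from the TSS, and midpoints were intergenic in 71.4%, intronic in 19.8% and exonic in 8.79% by the GENCODE annotation of mm9. Of 3319 lncRNA genes with an NR_ accession in the RefSeq table, 656 (19.8%) had an assigned peak and 91 (2.74%) had one within 1 kb. The corresponding values for 21031 protein-coding genes were 37.9% and 23.5%.

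**Figure D1:**
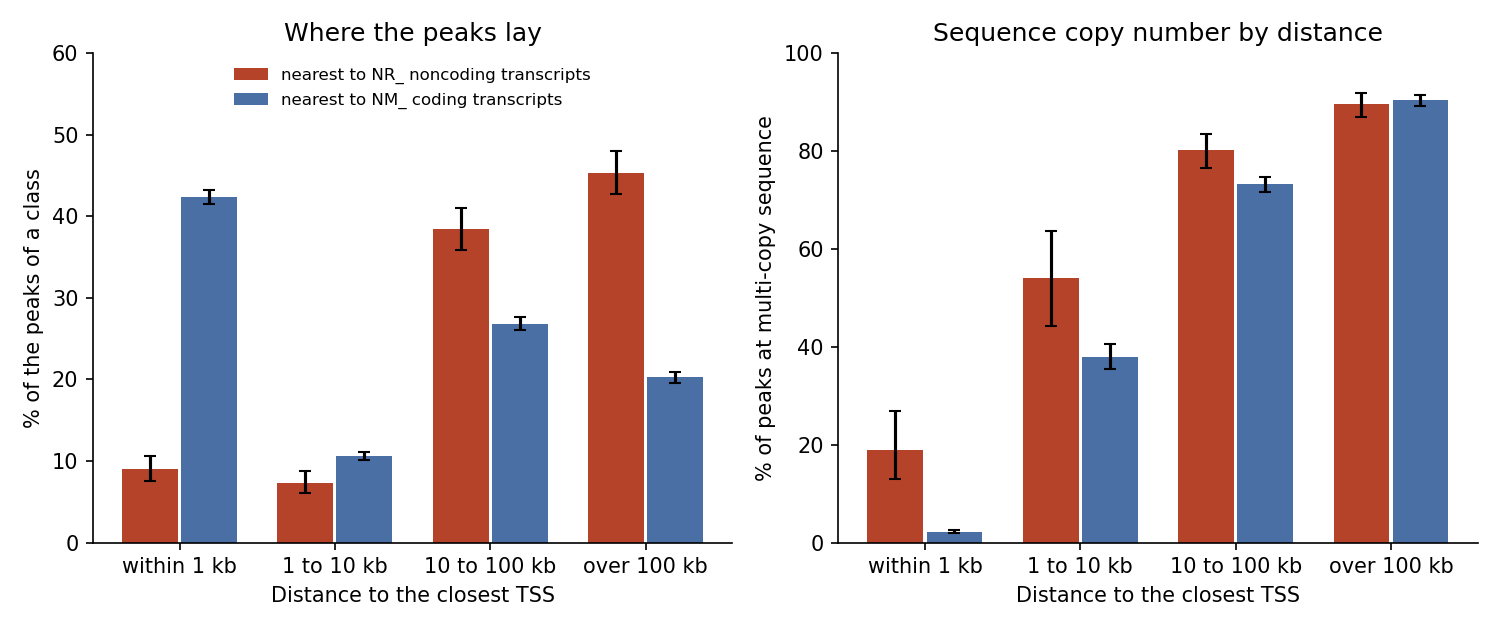
Left, the percentage of peaks in each class of distance to the closest TSS, for the 1342 peaks nearest to NR_ transcripts and the 12381 nearest to NM_ transcripts; right, the percentage of those peaks whose central 200 bp is multi-copy, with Wilson 95% intervals as error bars in both. Members lay mostly beyond 10 kb, and the multi-copy share of both classes rose from the closest to the farthest class, reaching 89.6% and 90.3% over 100 kb.

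The promoter peaks of noncoding transcripts were wide and rich in CG dinucleotides. The 121 members within 1 kb had a median width of 1148 bp (interquartile range 791 to 1421 bp), and the 5242 coding-assigned peaks of the same class had a median of 1049 bp. In the 200 bp at the centre, GC content averaged 71.4% ± 6.24 (SD, 121 peaks) against 73.7% ± 5.84 (SD, 5242 peaks). The ratio of observed to expected CG dinucleotides was 0.842 ± 0.302 and 0.913 ± 0.184 (SD). In this class, the share of peaks at least 1000 bp wide was 59.5% against 55.7% (Fisher exact p = 0.459) and the share with a GC content of at least 60% was 96.7% against 98.2% (Fisher exact p = 0.284), so neither difference was detectable. Multi-copy sequence was more frequent under the noncoding promoter peaks, at 23 of 121 (19.01%, interval 13.0% to 26.9%) against 117 of 5242 (2.23%, interval 1.87% to 2.67%). Many of the 23 were assigned to transcribed pseudogenes, such as Gm10409 (medians of 7, 10 and 14 copies) and Oaz1-ps (2 copies). The midpoint of the Oaz1-ps peak lay in an exon of the coding gene Oaz1, 155 bp from its start. Gm10409 and Oaz1-ps are named after their values were seen, and the part of pseudogenes in the difference was not tested. There were 8 promoter members without any CG dinucleotide in the window, and 6 of these were multi-copy.

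Most noncoding promoter peaks also lay near the start of a coding gene, though not all of them covered it. A protein-coding TSS of another gene lay within 1 kb of the midpoint at 71 of 121 members (58.7%, interval 49.8% to 67.1%), against 467 of 5242 coding-assigned peaks (8.91%, interval 8.17% to 9.71%). The odds ratio was 14.5 (two-sided Fisher exact test, adjusted p = 1.15e-40). The 2 classes are not counted alike here. A coding-assigned peak has its own gene left out, and noncoding partners were not sought for it. With any coding TSS counted, the shares were 66.1% of members and 97.8% of coding-assigned peaks. Of the 71, 8 were nearest to pseudogenes. With only lncRNA genes or genes of unknown type, the share was 61.0% of 100 members (odds ratio 16.0, Fisher exact test, adjusted p = 1.08e-36). At 17 of the 71 the midpoint was closer to this coding TSS than to the noncoding TSS of the assignment. Such a peak does not tell which of the start sites was bound. Upstream of the assigned TSS lay 44 of 121 members (36.4%, interval 28.3% to 45.2%) and 18.2% of the coding-assigned peaks (odds ratio 2.56, Fisher exact test, adjusted p = 6.59e-06). The median signed distance was 112 bp downstream for members and 153 bp downstream for the coding class.

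Strands were known for 61 of the 71 pairs. The starts were on opposite strands in 57 of them (93.4%), against 410 of 448 pairs (91.5%) of the coding-assigned peaks (odds ratio 1.32, Fisher exact test, adjusted p = 0.805 over 2 tests chosen after the values were seen). The arrangement differed. The noncoding start lay upstream of the coding start and pointed away from it, a divergent pair, in 19 of 61 cases (31.1%, interval 20.9% to 43.6%), against 296 of 448 (66.1%, interval 61.6% to 70.3%) where both genes were coding (two-sided Fisher exact test, odds ratio 0.232, adjusted p = 7.87e-07). In 38 members the noncoding transcript began downstream of the coding start on the opposite strand, so that the 5′ ends overlapped. The gap between starts had a median of 134 bp in the divergent pairs (range 51 to 742 bp) and of 352 bp in the overlapping pairs (range 6 to 1222 bp). Assignment to the closest TSS decides which peaks enter each class, and its part in this difference was not tested.

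**Figure D2:**
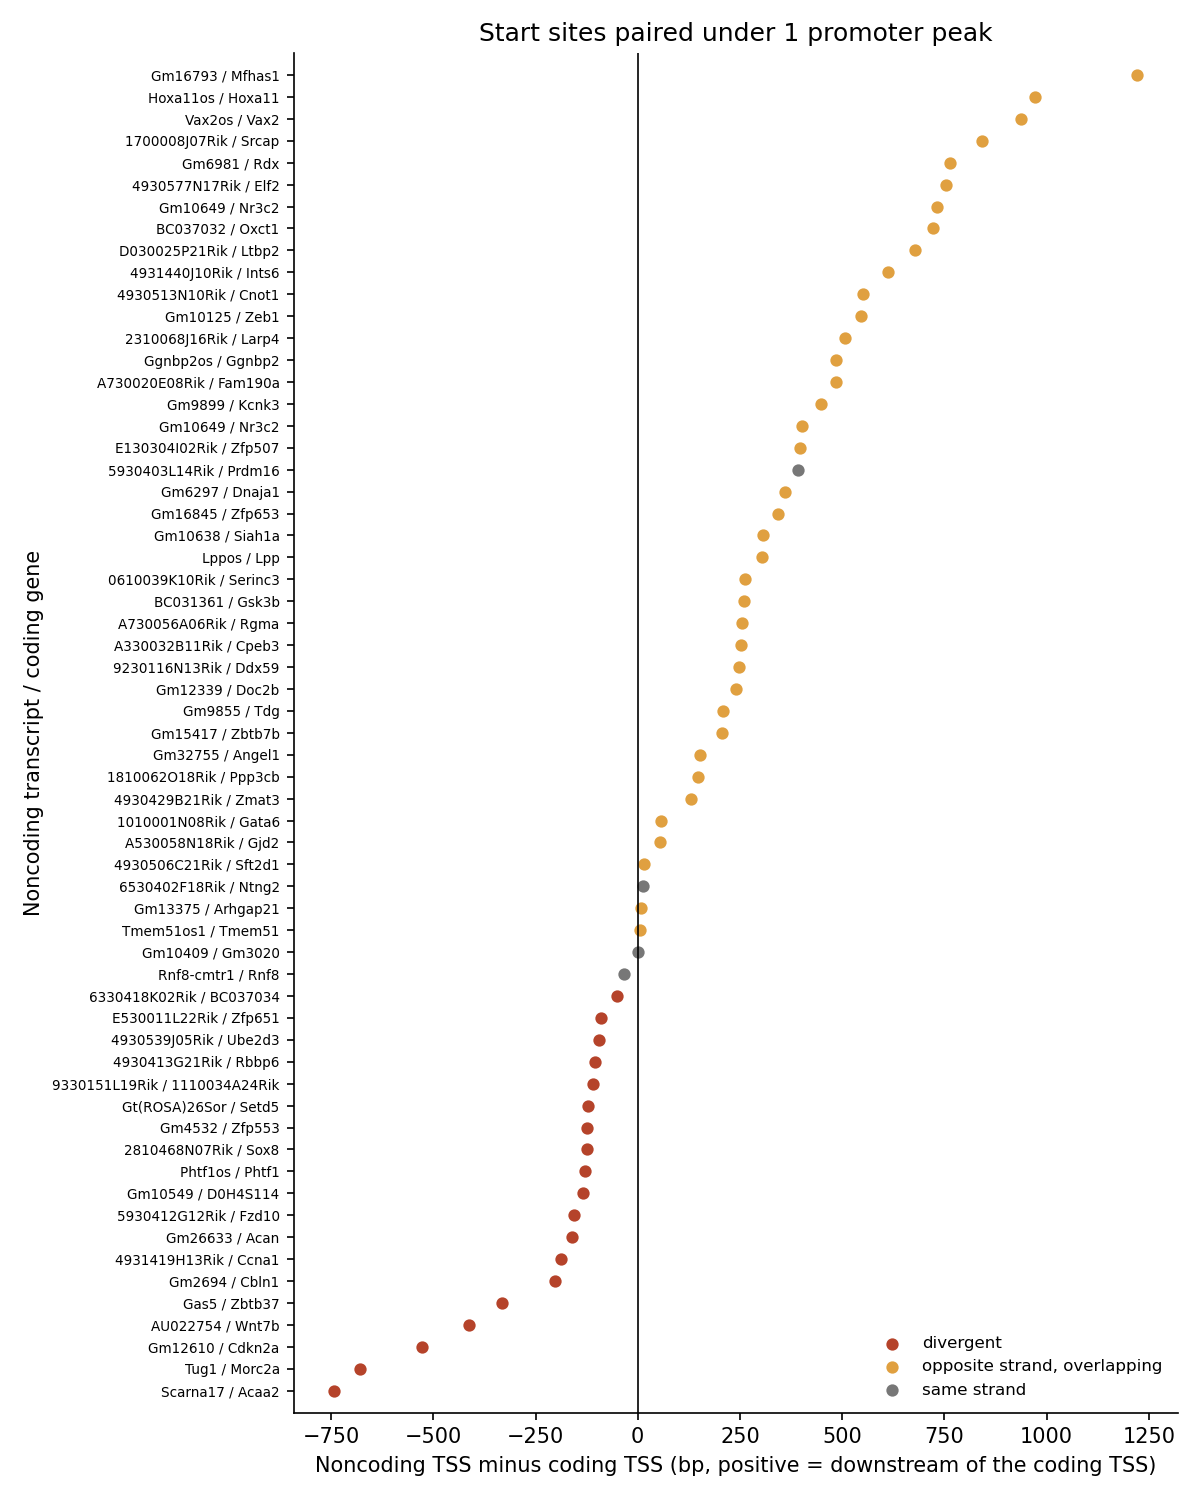
Position of the noncoding TSS relative to the coding TSS in bp, for the 61 peaks within 1 kb of a noncoding TSS that had a coding TSS within 1 kb and known strands; each point is a peak and the colour gives the arrangement. The 19 divergent pairs lie left of the coding TSS, the 38 overlapping opposite-strand pairs right of it, and 4 pairs were on the same strand.

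Some of the coding partners are described here, among them genes for developmental regulators. They were picked after their values were seen. The share of such genes among all partners was not counted, and the partners were not tested as a group. Gata6, a zinc finger factor of heart and endoderm, shared its start with 1010001N08Rik (now Gata6os), whose TSS lay 57 bp downstream on the opposite strand. A 484 bp peak covered both. The Sox8 start, of an HMG box factor, lay 125 bp from that of 2810468N07Rik in a divergent pair under a peak of 2073 bp. Fzd10, a Wnt receptor, and 5930412G12Rik were divergent with a gap of 157 bp and a peak of 1378 bp. Wnt7b, a Wnt ligand, and AU022754 were divergent with a gap of 413 bp and a peak of 1857 bp. BC031361 overlapped the start of Gsk3b, a kinase of the Wnt pathway, with a gap of 259 bp. Gm10125 overlapped Zeb1, a repressor of epithelial genes, with a gap of 546 bp. At Nr3c2, the mineralocorticoid receptor gene, the midpoints of 2 peaks of 1156 and 680 bp lay on either side of the start of Gm10649, which the narrower peak covered. All of these peaks were at single-copy sequence.

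Transcripts named for the strand opposite a coding gene formed a smaller set. There were 40 such names with 59 peaks, and 9 of the names had a peak within 1 kb. Over all members, 118 of 769 names had one. Tmem51os1 began 6 bp downstream of the Tmem51 start, Lppos 305 bp downstream of the start of Lpp, and Ggnbp2os 486 bp downstream of that of Ggnbp2. Phtf1os and Phtf1 were divergent with a gap of 130 bp. Vax2os began 937 bp inside Vax2, a homeobox gene of the ventral eye, and Hoxa11os 971 bp inside Hoxa11. Under Igf2os the peak midpoint was 5 bp from a start of the growth factor gene Igf2, and the Zfp652os peak was 471 bp from the Zfp652 start, with the strand not known for either transcript. These 8 peaks were single-copy and 706 to 1734 bp wide. The ninth, at Nell1os, had a median of 123 copies, a GC content of 49.5% and no CG dinucleotide. Of the 59 peaks, 43 lay beyond 10 kb, and 31 of these were multi-copy. Over all members, 83.7% lay beyond 10 kb, and 85.3% of these were multi-copy. The set was not tested against the other members.

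The other 50 promoter members had no coding TSS of another gene within 1 kb. At 9 of them the GENCODE annotation held a coding TSS under the same name, as at 2900097C17Rik, 1700030C10Rik and Hist1h2al (the last named after its value was seen), and 41 had no coding TSS at all within 1 kb. Of the 41, the Dleu2 peak (chr14:62299907-62302115) was 2208 bp wide with its midpoint in an exon, 199 bp downstream of the TSS. Snhg20, a small nucleolar RNA host gene, had a peak of 695 bp at 111 bp, and Terc, the telomerase RNA gene, one of 771 bp at 292 bp. Tunar, named here after its value was seen, had one of 1279 bp at 57 bp. Among the 41 peaks 12 were multi-copy (29.3%, interval 17.6% to 44.5%), among the 9 peaks 5 (55.6%, interval 26.7% to 81.1%), and among the 71 with a coding TSS of another gene 6 (8.45%, interval 3.93% to 17.2%). Mean GC content was 69.8% ± 6.68 in the 41 and 72.3% ± 5.90 in the 71, and the ratio of observed to expected CG dinucleotides 0.699 ± 0.414 and 0.906 ± 0.186 (SD). Pseudogenes were the assigned genes at 8 of the 71 and at 9 of the other 50. These splits were not tested.

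Lists of named lncRNAs are read beside the share over all lncRNA genes given above, 19.8% with an assigned peak and 2.74% with one within 1 kb. That share is over genes with an NR_ accession. The lists also keep Mirg, Pantr1 and Lncpint, which could not count as members, so the sets differ slightly. Of 12 lncRNA genes of heart and mesoderm, 4 had an assigned peak (33.3%, interval 13.8% to 60.9%) and 2 had one within 1 kb. The interval includes the share over all lncRNA genes. There were 11 peaks in all, of which 5 were multi-copy, against 77.0% of all members. Gata6os had 3, all single-copy. Beside the promoter peak described above, one of 1336 bp had its midpoint in an exon of Gata6, 2104 bp upstream of the Gata6os TSS, and one of 383 bp was in an intron of Gata6, 9837 bp upstream. Miat, a nuclear lncRNA first tied to myocardial infarction risk, had a peak of 735 bp at chr5:112657445-112658180, 156 bp downstream of its TSS in an exon, and another of 602 bp in an intron, 1382 bp downstream. Both Miat peaks were single-copy. Fendrr had peaks 46916 and 39487 bp downstream of its TSS, of which the first had 248 copies and the second was single-copy. Hand2os1, listed as Uph, had 4 peaks from 137724 to 377634 bp downstream, with medians of 471 to 3042.5 copies, and none nearer in this class. The farthest was 377758 bp from the start of Hand2, so the Hand2 and Hand2os1 starts lie close together. A peak near them can be assigned to Hand2 and leave the class. The 4 distal peaks of Hand2os1 all belonged to the repeat groups shown above. Bvht, Mhrt, Myheas, Carmn, Chast, Rmst, Tbx5os and Foxf1os had no assigned peak.

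Among 24 lncRNAs of Hox clusters and other developmental genes, 5 (20.8%, interval 9.24% to 40.5%) had 8 peaks, of which 1 lay within 1 kb of the TSS. This share was close to the 19.8% of all lncRNA genes. The Hoxa11os peak, 773 bp wide, was centred on its TSS with its midpoint in an exon. Hotair, which is transcribed from the HoxC cluster, had a single-copy peak of 828 bp that was intergenic and 5120 bp downstream. The peak of Hoxaas2, 805 bp wide with a GC content of 76%, lay 10246 bp downstream in an intron of Hoxa3. Six3os1 had 4 peaks, from 3356 to 140592 bp downstream. Of these, 2 were single-copy, including one of 720 bp in an exon of Six3os1 and 1432 bp from the start of Six3. The peak of Nkx2-2os, 7725 bp upstream, had 177 copies. Pantr1 was listed with an NM_ accession, so it stays among the 24 but does not count as having a peak. None of the 14 imprinted and X-inactivation genes, among them H19, Meg3, Kcnq1ot1, Airn and Xist, had an assigned peak (0%, interval up to 21.5%), and this interval also includes 19.8%. Mirg would in any case fall outside the class by its prefix, and Igf2os, at the imprinted Igf2 gene but not in this list, had the peak given above.

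Of 28 other well-known lncRNAs, 9 (32.1%, interval 17.9% to 50.7%) had 15 peaks, and 6 (21.4%) had one within 1 kb, against 19.8% and 2.74% of all lncRNA genes. The list was chosen with earlier results known, and this difference was not tested. Tug1, an abundant lncRNA, had a peak of 1430 bp, 258 bp upstream of its TSS and 422 bp from the start of Morc2a, and a second of 575 bp in an exon of Gm11950, 18427 bp downstream. Gas5, a host gene of small nucleolar RNAs, had a peak of 1012 bp that was 350 bp upstream of its TSS and 19 bp from the start of Zbtb37. The 2900097C17Rik peak was 1244 bp wide and 204 bp downstream. Pnky, a neural lncRNA listed as Gm30731, had a single-copy peak of 471 bp at 940 bp and 5 more from 51492 to 798679 bp, all multi-copy. Dancr had a peak 6522 bp upstream with 5 copies, Snhg5 one 8095 bp upstream at single-copy sequence, and Epb41l4aos one 47280 bp downstream with 1.5 copies. Malat1, Neat1, Pvt1 and the other 16 had none in this class, with Lncpint listed under an NM_ accession. Among small RNA genes, 9 had 10 peaks, and those of Terc, Scarna17 and Snord58b were within 1 kb. Scarna17 was 376 bp from the start of Acaa2 and Snord58b 335 bp from that of Rpl17, measured from the peak midpoint.

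The peaks far from noncoding starts were mostly at repeated sequence. Of all members, 1034 (77.0%, interval 74.7% to 79.2%) were multi-copy, against 42.9% of the coding-assigned peaks (odds ratio 4.47, Fisher exact test, adjusted p = 1.98e-129). Within the distal class beyond 10 kb, the difference was small, at 958 of 1123 members (85.3%, interval 83.1% to 87.3%) against 80.5% (odds ratio 1.40, Fisher exact test, adjusted p = 1.40e-04). The shares were 80.2% against 73.1% at 10 to 100 kb, and 89.6% against 90.3% over 100 kb. Over 100 kb lay 608 of the 1123 distal members and 2505 of the 5826 distal coding-assigned peaks. The part of distance within the distal class was not tested. With 1 peak per name, the closest to its TSS, the distal shares were 80.9% and 80.7% (odds ratio 1.01, Fisher exact p = 1). These shares cover only the 559 and 2312 names whose closest peak was distal. They leave out farther peaks and so do not repeat the distal comparison for each name. Distal members had a mean GC content of 61.0% ± 7.80 (SD) against 61.7% ± 7.90 and a median width of 879 against 885 bp. Over all distances, fewer members than coding-assigned peaks were at least 1000 bp wide (40.1% against 45.6%, adjusted p = 1.36e-04) or had a GC content of at least 60% (74.1% against 83.4%, Fisher exact test, adjusted p = 7.06e-16). Among distal peaks alone these shares were 38.8% against 39.4% (Fisher exact p = 0.714) and 71.9% against 72.1% (p = 0.913).

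**Figure D3:**
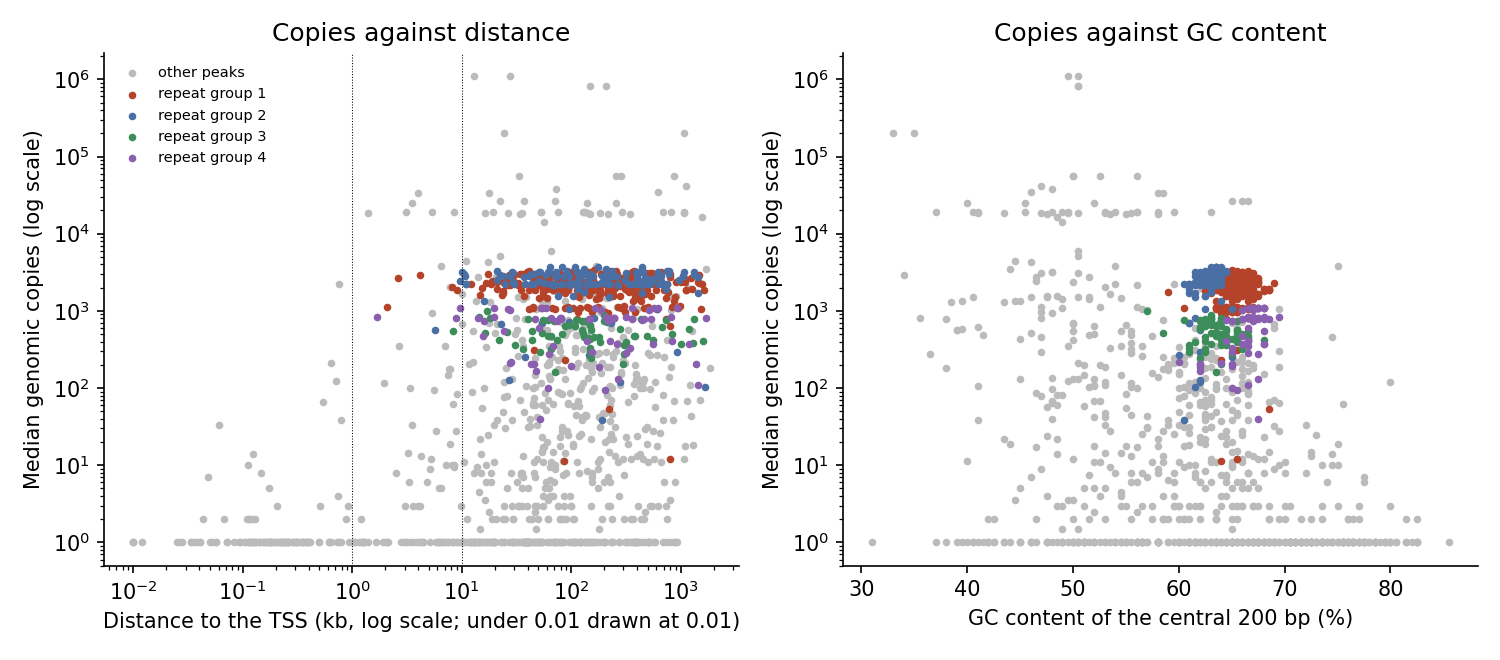
Median genomic copies of the central 200 bp of each of the 1342 members on a log scale, against distance to the TSS on a log scale (left; dotted lines at 1 and 10 kb) and against GC content (right); colours mark the 4 largest repeat groups. The groups lie almost wholly beyond 10 kb and at GC contents around 60% to 70%, while most peaks within 1 kb sit at 1 copy.

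The 4 largest repeat groups, in which peaks are linked by sharing at least 50% of the 31-mers of their windows, held 539 members (40.2%), of which 528 were distal. They made up 47.0% of the distal members and 40.3% of the distal coding-assigned peaks. Group 1 held 263 members near 192 names on 20 chromosomes, with 2172.5 copies in the median, a median width of 1139 bp and a GC content of 65.4% ± 1.29 (SD). Group 2 held 144 members with a GC content of 62.7% ± 0.952, and groups 3 and 4 held 64 and 68 members with GC contents of 63.7% ± 1.94 and 66.3% ± 1.72. No name held more than 4 members of a group. The representatives of groups 1 and 3 shown above shared a run of 27 bp, and those of groups 2 and 4 one of 9 bp.

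Most members of these groups were built of tandem repeats. A peak was counted as tandem when at least 31 of its 31-mers recurred at the same spacing within the peak. This held for 243 of 263 peaks of group 1, and the spacing was 212 bp in 225 of them. In group 2 it held for 133 of 144 peaks, with a spacing of 208 bp in 123. In group 3 it held for 45 of 64, with a spacing of 214 bp in 42, and in group 4 for 58 of 68, most often with 204 bp. Of the single-copy members, 7 of 308 (2.27%) were tandem by this count. Tandem units of this kind are known from the 5′ ends of mouse LINE-1 retrotransposons, but no repeat annotation was used and the groups were not identified. An aligner places a read that fits many positions at only one of them, so a peak here need not mark the copy that was bound, and how far this set the positions was not tested.

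Of the 538 members at least 1000 bp wide, 395 (73.4%) were tandem by this count and 348 (64.7%) belonged to the 4 groups, against 23.8% and 23.8% of the 804 narrower members. The tandem count needs room for recurring units within the peak, so it depends on width, and this part was not tested. The widest, 4408 bp near 1700110I07Rik at chr7:48426754-48431162, lay 83745 bp upstream of the TSS and had a 208 bp spacing. The peaks of E230016M11Rik (3762 bp, in an intron of Gng12) and Celrr (2902 bp, intergenic) were of the same group with the same spacing. The other 2 of the 5 widest peaks were neither tandem nor in a group. The peak of 1700048O20Rik, 3061 bp wide and 6492 bp upstream, had 3817 copies, a GC content of 75% and no CG dinucleotide in its window. The third widest was a single-copy peak of 3147 bp at chr4:154009030-154012177 with a GC content of 85.5%. It lay 127 bp upstream of 5930403L14Rik and 266 bp from a start of Prdm16, a zinc finger gene, on the same strand.

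The transcripts with most peaks owed them to distal sequence. More names had 2 or more peaks in the noncoding class (270 of 769, 35.1%, interval 31.8% to 38.6%) than in the coding class (28.3%, odds ratio 1.37, Fisher exact test, adjusted p = 1.36e-04). With single-copy peaks only, the direction turned, at 9.39% against 13.0% (odds ratio 0.693, Fisher exact test, adjusted p = 0.104). The lncRNA 1700030C10Rik on chromosome 12 led with 10 peaks over 1239 kb, 7 of them multi-copy and none in groups 1 to 4. It was the one name of the leading 10 with a peak within 1 kb, 318 bp from the TSS, and had another single-copy peak of 1703 bp at 503172 bp. Next were 4930428D20Rik, 4930459L07Rik, Gm15679 and Gm20268 with 9 peaks each, then 2610316D01Rik, 4930474G06Rik, 4930474H20Rik and Gm2516 with 8 and 1700017L05Rik, alphabetically first of 7 names, with 7. Their peaks lay from 27400 to 1848778 bp from the TSS, and at most 1 peak of each was single-copy. Between 3 and 6 peaks of each belonged to the repeat groups.

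**Figure D4:**
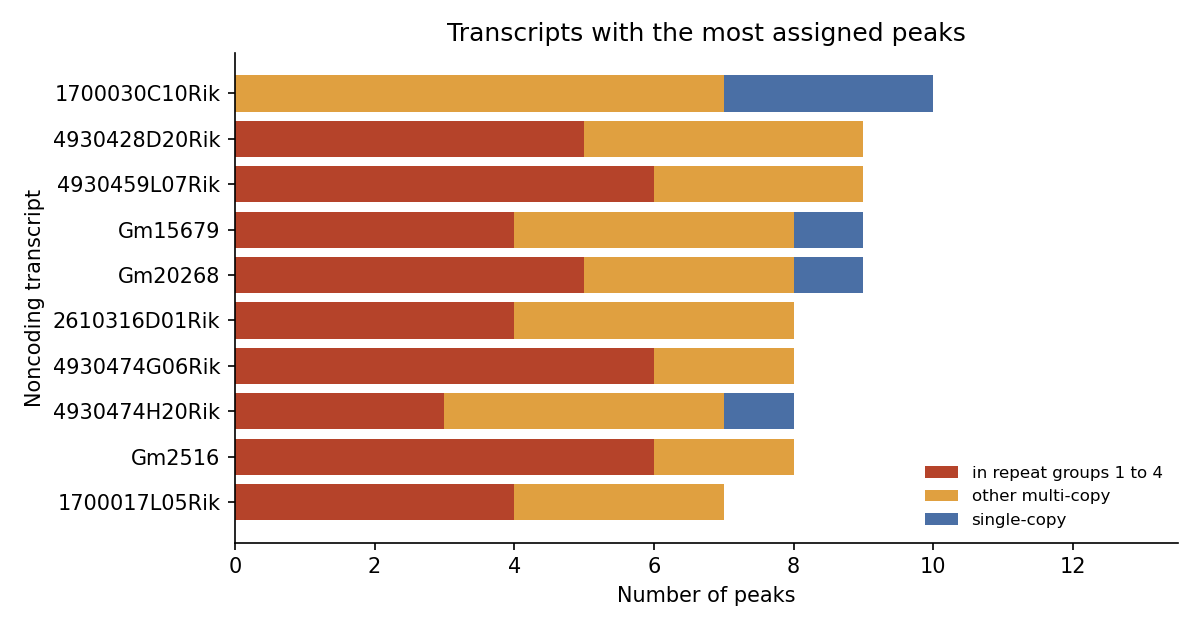
Number of peaks assigned to each of the 10 noncoding transcripts with most peaks, divided into peaks in repeat groups 1 to 4, other multi-copy peaks and single-copy peaks. The tie for the last place was broken alphabetically. Single-copy peaks made up 3 of the 10 of 1700030C10Rik and 0 or 1 of the others.

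Distal members at single-copy sequence were 165, or 14.7% of the distal members, near 150 names. Their median width was 611 bp and their mean GC content 59.1% ± 11.1 (SD). Midpoints were intergenic in 107, intronic in 36 and exonic in 22. At 13 of them a protein-coding TSS of the GENCODE annotation lay within 1 kb although the deposited assignment was to a noncoding TSS over 10 kb away. The 13 included the peaks of AI506816 (1684 bp, 307 bp from a start of Srpk2), 9630028H03Rik (1575 bp, 481 bp from Plcb4) and A330049N07Rik (1404 bp, 402 bp from Pcdh15). At any copy number, a coding TSS lay this close at 19 of 1123 distal members (1.69%). Among distal coding-assigned peaks it did so at 161 of 5826 (2.76%). After the peak of 4933400F21Rik shown above, the widest was 2116 bp near Lncppara, intergenic, with a GC content of 80.0%. The next, 1800 bp near 3110009F21Rik, was 90807 bp from the start of Dio3.

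Short strings were sought on both strands of the central 200 bp. TAAT, the core of homeodomain sites, was present in 409 members (30.5%), 18.1% of coding-assigned peaks and 19.4% of all peaks. By distance it was in 8.26% of members within 1 kb (interval 4.55% to 14.5%) and 34.1% beyond 10 kb (interval 31.4% to 36.9%), against 5.78% and 29.8% of the coding-assigned peaks. The longer CTAATNG, in which TAAT is contained, was in 10 members (0.745%) and 0.597% of all peaks, and GATAA in 3.28% and 3.39%. By distance, CTAATNG was in 0 of 121 members within 1 kb (interval up to 3.08%) and 0.801% beyond 10 kb, and GATAA in 4.13% (interval 1.78% to 9.31%) and 3.47%, and the intervals of the distance classes overlapped for both strings. GGGCGG, the core of GC boxes, was in 52.9% of members within 1 kb and 24.6% beyond 10 kb, against 66.1% and 26.4% of the coding-assigned peaks and 42.0% of all peaks. CACGTG was in 1.56% of members and 2.55% of all peaks. These matches are descriptions of the letters in the windows, and windows of a repeat group share them.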

How the data were processed

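Chromatin immunoprecipitation was sequenced for 2 Isl1 replicates and 1 input of day 5 CPCs. The authors mapped the reads to mm9 (bowtie2, default settings), took out duplicates (Picard 1.136), ran MACS14 with no fragment model, discarded blacklisted peaks, intersected the replicates (bedtools v2.15) and annotated the closest TSS with HOMER. The deposited list holds start, end and distance to the TSS in bp, with no count, score or ratio, so the depth of each sample is unknown here.

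Of 14165 lines, 83 repeated another. Coordinates were read on NCBIM37, which is the mm9 sequence, with GENCODE M1. 0 peaks ran past a chromosome end, and 97.8% of coding-assigned peaks within 1 kb had a GENCODE coding TSS within 1 kb. Starts are uncertain by 1 bp. Gene types and names came from RefSeq (GRCm38 table, no coordinates used), which matched 1319 members by accession, 21 by symbol and left 2 unmatched. The lists were matched through current names, so older symbols count.

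The 9 shares were compared between classes with the two-sided Fisher exact test (scipy), Wilson 95% intervals and Benjamini-Hochberg adjustment over the 9 shares. Neighbouring peaks and members of a repeat group are not independent, so p-values are too small. Copy number counting was tested on simulated data. Named were the members of the lists and the 10 names with most peaks, with ties taken alphabetically. So were the 5 widest peaks and opposite-strand names with a peak within 1 kb. Others are marked as chosen after their values were seen, except the partners of pairs, the representatives of repeat groups, Rprl1 and Rprl2, and the distal single-copy peaks, which were also chosen then. The members, lists and tests were chosen with earlier results of these data known. Alternatives were a minimum width of 500 bp, merging within 1000 bp, lncRNA gene types only, 1 peak per name, autosomes, single-copy peaks and other limits. The 1 peak kept per name was the closest to the TSS.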

Additional observations from a re-analysis of the deposited data

Results flagged for a closer look

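Among the members, 6 of 1348 lines repeated another line exactly, against 83 of all 14165 lines. These copies were not used in the comparisons above. Each of 6 peaks was listed 2 times. The repeated peaks were 1511.5 bp wide in the median, and the members listed once 886 bp. This contrast rests on 6 peaks and was not tested. They are given here because they lie outside the values compared, and no list of the input was analysed here.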

How the results depend on the processing

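Of 67 alternative values for the 9 shares, 60 gave the same direction and the same call, 5 kept the direction but no longer passed the threshold, and 2 turned. Their odds ratios follow, and the cause was not tested. With 1 peak per name, the closest to its TSS, multi-copy sequence beyond 10 kb had an odds ratio of 1.01. With single-copy peaks only, names with 2 or more peaks had one of 0.693. A width limit of 2000 bp gave 0.848. Comparisons within a distance class were added after seeing the data. For peaks at least 1000 bp wide they gave 1.17 within 1 kb and 0.974 beyond 10 kb, and for a GC content of at least 60% they gave 0.534 and 0.990. Leaving out a replicate was not possible, since the list combines both. No paired analysis was possible because the only list pools the ChIP replicates and has no column for either of them or for the input. Without read numbers, weak and strong peaks cannot be told apart.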
